A study of Homo sapiens with 12 samples.

Results

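ATF4 and 5 other basic leucine zipper (bZIP) transcription factors of the amino acid stress response, ATF5, DDIT3 (CHOP), ATF3, CEBPB and CEBPG, were followed in arginine-starved RKO cells, an established human colon cancer line. Each gene was read from the transcript row that a list of 15 Ensembl identifiers names for it, and 7 of the 15 were in the tables of 19686 RNA rows and 19849 footprint rows. The rows used were ENST00000337304 for ATF4, ENST00000423777 for ATF5, ENST00000551116 for DDIT3, ENST00000341491 for ATF3, ENST00000303004 for CEBPB and ENST00000284000 for CEBPG, so all 6 genes were measured. The other identifier present, ENST00000552740 of DDIT3, had 0 counts in all 12 libraries, which allows up to 0.0753 CPM (counts scaled to library size) in RNA and 0.173 CPM in footprints (3 counts over the 6 libraries of an assay).

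Wild-type RKO cells, so labelled, were held for 24 h in arginine-free medium with dialysed serum to which arginine was returned at 12.5 uM (starved) or 400 uM (fed). RNA-seq and ribosome profiling, which sequences the mRNA fragments covered by ribosomes (footprints), gave 3 libraries per condition and assay. Library totals ran from 4670881 to 7967215 counts in RNA and from 2063952 to 4364383 in footprints. No label states that the 3 libraries of a group were separate cultures. The p-values therefore cover only their spread, in part possibly technical. Epithelial markers were not read, because the tables pair no identifier with a gene name.

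Uncharged tRNA activates the kinase GCN2, which phosphorylates eIF2alpha and lowers initiation on most mRNAs. ATF4 escapes this through upstream open reading frames that keep ribosomes from its coding sequence in fed cells and let them reach it under stress. The ATF4 protein binds composite C/EBP-ATF elements as a dimer, often with a C/EBP partner such as CEBPB or CEBPG, and ATF5, DDIT3 and ATF3 act beside or after it. ATF5 and DDIT3 mRNAs also carry upstream open reading frames. Whether the counts include footprints in such leaders is not given in the sources used here, so a footprint count below need not be coding sequence alone.

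Start-site sequences were compared because ATF4 and its partners read a known element. RefSeq windows (GRCh38.p14, 250 bases before and 50 after a start) matched all 6 genes, with 13 windows in all. The letters TGATGNAA, read on both strands, form the C/EBP-ATF composite element. These letters occurred in a window of CEBPG and in a window of ATF3, and not in the other window of either gene. They occurred in 4.46% of the 27305 genes of the table and in 3.62% of its 35116 windows. A gene with more windows has more chances of a match. The CRE letters TGACGTCA were in no window of the 6 genes, in 2.25% of all genes and in 1.85% of all windows. The AP-1 letters TGANTCA were searched only after the windows had been read. These letters were in both windows of DDIT3, which overlap and share the site. They were also in a window of ATF5 and not in its other windows. They were in 9.37% of all genes and in 7.71% of all windows. The stretches below show the composite element of CEBPG (chr19:33374045-33374104, plus strand, element 42 to 35 bases before the start) and of ATF3 (chr1:212565190-212565249, plus strand, 191 to 184 before). The last stretch shows the AP-1 letters of DDIT3 (chr12:57520723-57520764, minus strand, 241 to 235 before). Capitals mark the matched letters and each stretch is written 5′ to 3′ on the strand of the gene. A match describes letters only, and letters outside the windows were not searched. Windows were matched by gene name, so a start need not be that of the transcript row measured.
CEBPG: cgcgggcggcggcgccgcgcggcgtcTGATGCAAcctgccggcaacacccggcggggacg
ATF3: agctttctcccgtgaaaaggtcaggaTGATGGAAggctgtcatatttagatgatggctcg
DDIT3: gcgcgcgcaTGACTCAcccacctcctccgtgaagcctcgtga

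RNA of all 6 factors rose in starved cells, and footprints rose on 5 of them, with ATF5 the exception. "Rose" and "fell" mark a Benjamini-Hochberg adjusted p under 0.05 in edgeR's quasi-likelihood test over all transcripts. Log2 fold changes are starved relative to fed, with TMM scaling. Scaling within each assay makes every change relative to the bulk of transcripts, so a shift shared by all of them would not show. In RNA, 33.8% of the 11572 tested transcripts were called higher and 34.1% lower, and in footprints 18.9% of 13457 were called higher and 20.9% lower. Both assays were called higher for 5 of the 6 and for 13.7% of the 11027 transcripts tested in both. The median log2 fold change of the 6 was 1.84 in RNA and 1.89 in footprints, while over all tested transcripts it was −0.01 and 0.05. Starved and fed CPM did not overlap for 5 of the 6 in RNA and in footprints, all higher in starved cells; 28.6% of tested RNA transcripts and 26.6% of tested footprint transcripts did the same. Together the 6 rows held 0.124%, 0.123% and 0.113% of RNA counts in starved libraries and 0.0392%, 0.0379% and 0.0356% in fed libraries. They held 0.0751%, 0.0725% and 0.0856% of footprint counts in starved libraries and 0.0203%, 0.0171% and 0.0195% in fed libraries. Coding lengths were not used here, so the levels of different genes are not compared.

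**Figure D1:**
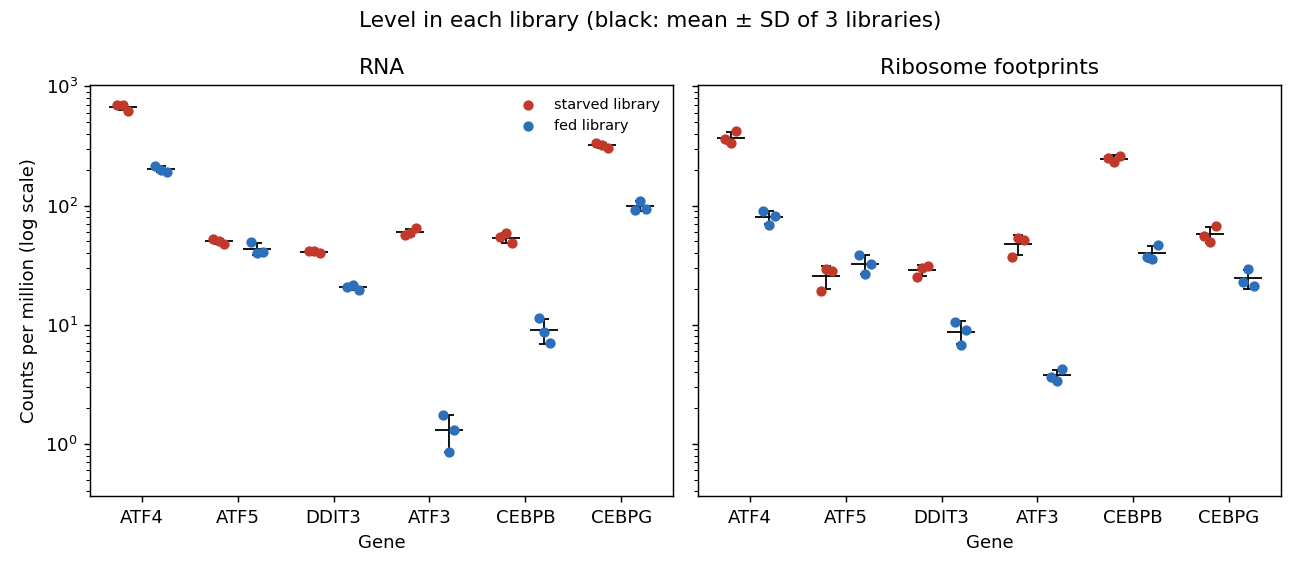
RNA (left) and footprint (right) levels of the 6 factors in CPM on a log axis, with 1 point per library and black bars for mean ± SD of 3 libraries. Starved points lie above fed points for 5 genes in each panel, and the groups of ATF5 overlap in both.

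ATF4, the factor through which the pathway acts, rose at both levels. ATF4 RNA stood at 693, 704 and 626 CPM in starved libraries and at 217, 198 and 192 CPM in fed libraries. Its footprints stood at 361, 333 and 418 CPM in starved libraries and at 90.0, 68.8 and 81.7 CPM in fed libraries. Every starved library exceeded every fed one in both assays. The log2 fold change was 1.85 in RNA (SE 0.07, edgeR adjusted p = 1.45e-32) and 2.15 in footprints (SE 0.14, edgeR adjusted p = 5.00e-07). The footprint change ranked 74 from the top of 13457 transcripts and the RNA change ranked 163 of 11572.

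The ATF4 footprint change exceeded its RNA change by 0.39 on the log2 scale (SE 0.14, 95% interval 0.09 to 0.69). This interaction of assay and treatment, here called a change of translational efficiency (footprints relative to RNA), did not pass the threshold over 11027 transcripts (edgeR adjusted p = 0.0593). It compares counts only, and ribosome speed and protein output were not measured. It was 0.46 with adjusted p = 0.0391 on library totals and 0.62 with adjusted p = 0.00613 once an abundance trend was removed from each library (both edgeR). It was smaller, 0.25, with no filter on low counts (edgeR adjusted p = 0.341) and with TMM factors from all rows (edgeR adjusted p = 0.238), fits that scale nearly alike. It also passed without starved footprint replicate 2 or without fed footprint replicate 1, with edgeR adjusted p between 0.0225 and 0.172 over the 12 fits that leave out a library. RefSeq lists 4 genes named as ATF4 pseudogenes, and how reads shared with them were counted is not given in the sources used here.

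CEBPG and CEBPB, C/EBP proteins that dimerise with ATF4, both rose. CEBPG lacks a transactivation domain of its own and acts through its partners. Its RNA stood at 338, 322 and 306 CPM in starved libraries and at 92.4, 110 and 94.4 CPM in fed libraries. Its footprints stood at 55.2, 49.5 and 67.3 CPM in starved libraries and at 22.7, 29.6 and 21.2 CPM in fed libraries. Groups did not overlap in either assay. The log2 fold change of CEBPG was 1.82 in RNA (SE 0.07, edgeR adjusted p = 4.34e-32) and 1.20 in footprints (SE 0.17, edgeR adjusted p = 0.000198).

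CEBPG footprints gained less than its RNA. Efficiency of CEBPG fell, with a log2 difference of −0.53 (SE 0.18, 95% interval −0.90 to −0.15, edgeR adjusted p = 0.0419). Efficiency was called lower for 11.7% and higher for 11.1% of the 11027 transcripts. The CEBPG call was lost on library totals (−0.45, edgeR adjusted p = 0.0904), with the abundance trend removed (−0.34, edgeR adjusted p = 0.193) and in 8 of 12 fits that leave out a library. Those were fits without any 1 starved RNA library, fed RNA replicate 1 or 3, starved footprint replicate 2, or fed footprint replicate 1 or 2, and over all 12 fits the difference ran from −0.65 to −0.40, with edgeR adjusted p from 0.0166 to 0.141.

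CEBPB, which is made as activating and inhibitory isoforms from alternative start codons, rose in both assays. CEBPB RNA stood at 54.1, 59.0 and 48.4 CPM in starved libraries and at 11.4, 8.78 and 7.06 CPM in fed libraries. CEBPB footprints stood at 252, 230 and 260 CPM in starved libraries and at 37.3, 35.4 and 46.7 CPM in fed libraries. The starved libraries lay several-fold above the fed ones in both. The log2 fold change was 2.65 in RNA (SE 0.13, edgeR adjusted p = 1.44e-28) and 2.59 in footprints (SE 0.14, edgeR adjusted p = 2.26e-07). Its efficiency difference was 0.033 (SE 0.22, 95% interval −0.42 to 0.49, edgeR adjusted p = 0.938), and the sign of this value turned between settings. Counts per transcript do not separate the CEBPB isoforms. The antisense gene CEBPB-AS1 overlaps CEBPB, and RNA reads of the pair cannot be told apart without strand.

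ATF3, a stress-induced bZIP factor that often represses its targets, had the largest change of the 6 in both assays. ATF3 RNA had 418, 361 and 439 counts in starved libraries and 14, 4 and 9 counts in fed libraries. That is 57.1, 58.4 and 64.8 CPM in starved libraries and 1.76, 0.856 and 1.30 CPM in fed libraries. The exact 95% binomial interval of the fed library with 4 counts was 0.233 to 2.19 CPM, counting error only. ATF3 footprints stood at 37.2, 53.7 and 51.4 CPM in starved libraries (87, 152 and 188 counts) and at 3.67, 3.39 and 4.25 CPM in fed libraries (16, 7 and 9 counts). ATF3 counts were few in every fed library, and the groups did not overlap. In both assays ATF3 passed the filter on low counts through its starved libraries, where it was high. The ranks and p-values of ATF3 carry this selection. The log2 fold change was 5.54 in RNA (SE 0.17, edgeR adjusted p = 2.86e-38), rank 7 of 11572 from the top, and 3.61 in footprints (SE 0.23, edgeR adjusted p = 4.68e-07), rank 17 of 13457.

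ATF3 footprints rose by less than its RNA, and the efficiency of ATF3 fell, with a log2 difference of −1.82 (SE 0.38, 95% interval −2.62 to −1.03, edgeR adjusted p = 0.00182). The fed side of this difference rests on 27 RNA and 32 footprint counts over 3 libraries each. The call held in each setting tried and in all 12 fits that leave out a library, where the value ran from −2.12 to −1.66.

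**Figure D2:**
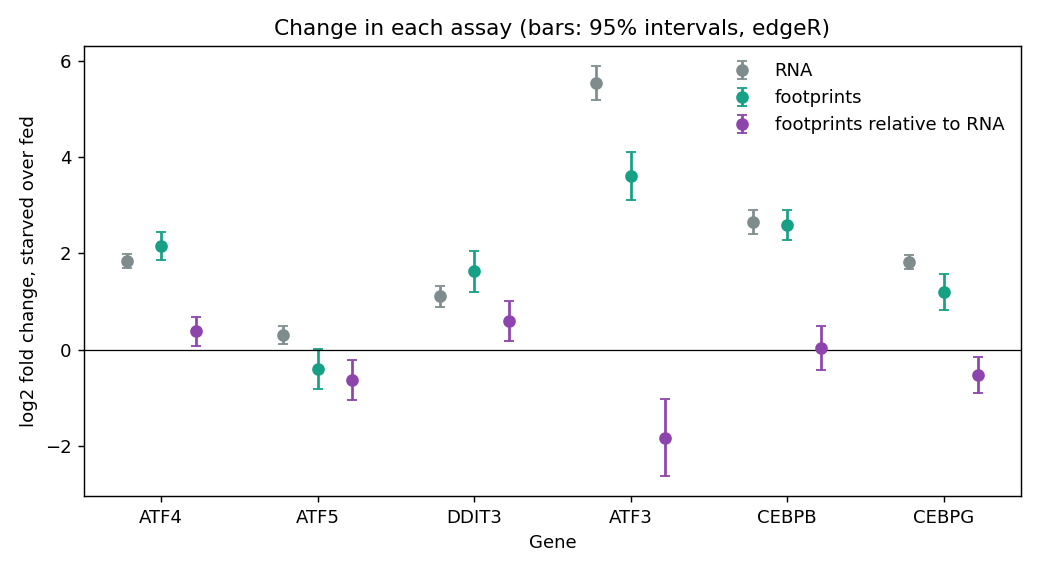
Log2 fold change, starved over fed, of RNA, footprints and footprints relative to RNA for the 6 factors; points are edgeR estimates and bars are 95% intervals from 3 libraries per group and assay. ATF3 has the largest RNA and footprint changes (5.54 and 3.61) and the lowest relative change (−1.82), and ATF5 is the only one of the 6 with a footprint estimate below 0.

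DDIT3 encodes CHOP, a dimerisation partner of C/EBP proteins linked to stress-induced cell death. DDIT3 RNA stood at 41.5, 41.2 and 40.3 CPM in starved libraries and at 20.8, 21.6 and 19.5 CPM in fed libraries. DDIT3 footprints stood at 25.2, 30.1 and 31.2 CPM in starved libraries (59, 85 and 114 counts) and at 10.5, 6.78 and 8.97 CPM in fed libraries (46, 14 and 19 counts). Both assays separated the groups with no overlap. Its log2 fold change was 1.11 in RNA (SE 0.11, edgeR adjusted p = 1.86e-14) and 1.63 in footprints (SE 0.20, edgeR adjusted p = 4.94e-05).

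DDIT3 was the only one of the 6 whose efficiency was called higher, by 0.60 on the log2 scale (SE 0.20, 95% interval 0.18 to 1.01, edgeR adjusted p = 0.0357). This call was not stable: the adjusted p was 0.0984 with the Wald test of DESeq2, 0.180 in edgeR with no filter, 0.109 in edgeR with TMM factors from all rows and 0.0616 in edgeR with the abundance trend removed. It was lost in 9 of 12 fits that leave out a library, all but those without fed RNA replicate 3, starved footprint replicate 1 or fed footprint replicate 1, with edgeR adjusted p from 0.0289 to 0.109 over the 12. The estimate stayed between 0.47 and 0.79 in these fits. RefSeq places MARS1, LOC128125814 and MIR616 over the DDIT3 locus, and how reads shared with them were assigned is not given in the sources used here.

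ATF5, a relative of ATF4 with its own upstream open reading frames, did not pass the test in footprints. ATF5 RNA stood at 52.6, 50.1 and 47.2 CPM in starved libraries and at 49.1, 40.0 and 40.9 CPM in fed libraries. Its footprints stood at 19.2, 29.3 and 28.2 CPM in starved libraries (45, 83 and 103 counts) and at 38.5, 26.6 and 32.1 CPM in fed libraries (168, 55 and 68 counts). The groups overlapped in both assays. ATF5 RNA rose slightly, by 0.31 (SE 0.09, edgeR adjusted p = 0.00283), and this call was lost on library totals (0.19, edgeR adjusted p = 0.0622). The footprint log2 fold change was −0.40 (SE 0.19, 95% interval −0.80 to 0.01, edgeR adjusted p = 0.111). It was −0.26 without fed footprint replicate 1 (edgeR adjusted p = 0.405) and ran from −0.54 to −0.26 over the 6 fits that leave out a footprint library.

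The efficiency of ATF5 fell, with a log2 difference of −0.63 (SE 0.20, 95% interval −1.04 to −0.22, edgeR adjusted p = 0.0251). The call was lost on library totals (edgeR adjusted p = 0.0563) and in 3 of 12 fits that leave out a library, those without fed RNA replicate 2, starved footprint replicate 1 or fed footprint replicate 1 (edgeR adjusted p from 0.0118 to 0.149 over the 12). IL4I1, NUP62 and MIR4751 overlap the ATF5 locus in RefSeq, and reads over shared stretches could be assigned to either.

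**Figure D3:**
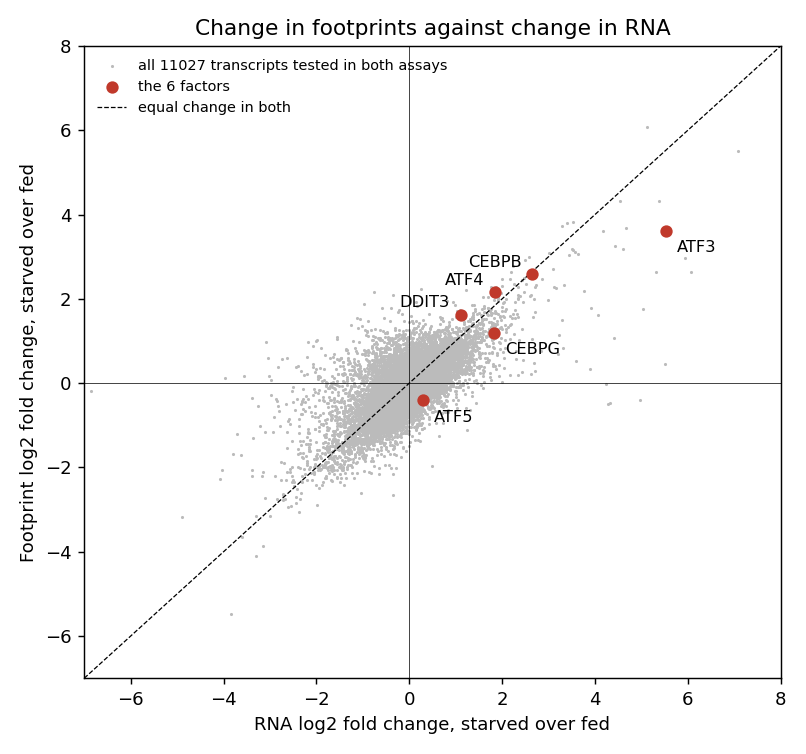
Footprint against RNA log2 fold change, starved over fed, for the 11027 transcripts tested in both assays (grey) and the 6 factors (red); the dashed line marks equal change. ATF4 and DDIT3 lie above the line, CEBPB on it, and CEBPG, ATF5 and ATF3 below it.

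Ratios of a factor to ATF4 within the same library compare the sizes of the changes without any scaling between libraries. In RNA the log2 count ratio of CEBPG to ATF4 was −1.07 ± 0.06 in starved and −1.03 ± 0.19 in fed libraries (SD, n = 3), with overlapping groups (p = 0.8 by an exact two-sided permutation test; 0.8 after adjustment over 10 ratios). In footprints the ratio was lower in starved cells, at −2.70 ± 0.06 in starved and −1.71 ± 0.43 in fed libraries (SD, n = 3), a difference of −0.99. Groups did not overlap in that ratio, nor in the other ratios but that of CEBPG RNA. So 9 of the 10 reached p = 0.1 (adjusted 0.111), the smallest that an exact two-sided permutation test of 3 against 3 allows. No ratio could therefore pass 0.05. How many of all transcripts separate from ATF4 in this way was not computed. ATF4 itself changed by 1.85 in RNA and 2.15 in footprints, while the medians over all tested transcripts were −0.01 and 0.05. A transcript with little change could therefore separate from ATF4 too, and the 9 separations are not read as a trait of these factors.

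ATF5 lost most against ATF4: the log2 ratio was −3.75 ± 0.05 in starved and −2.22 ± 0.08 in fed RNA libraries, and −3.87 ± 0.36 in starved and −1.31 ± 0.07 in fed footprint libraries (SD, n = 3). DDIT3, which itself rose, lost against ATF4 as well, with starved minus fed differences of −0.75 in RNA and −0.50 in footprints. CEBPB gained on ATF4 by 0.84 in RNA and 0.43 in footprints. ATF3 gained on ATF4 by 3.75 in RNA and 1.36 in footprints.

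**Figure D4:**
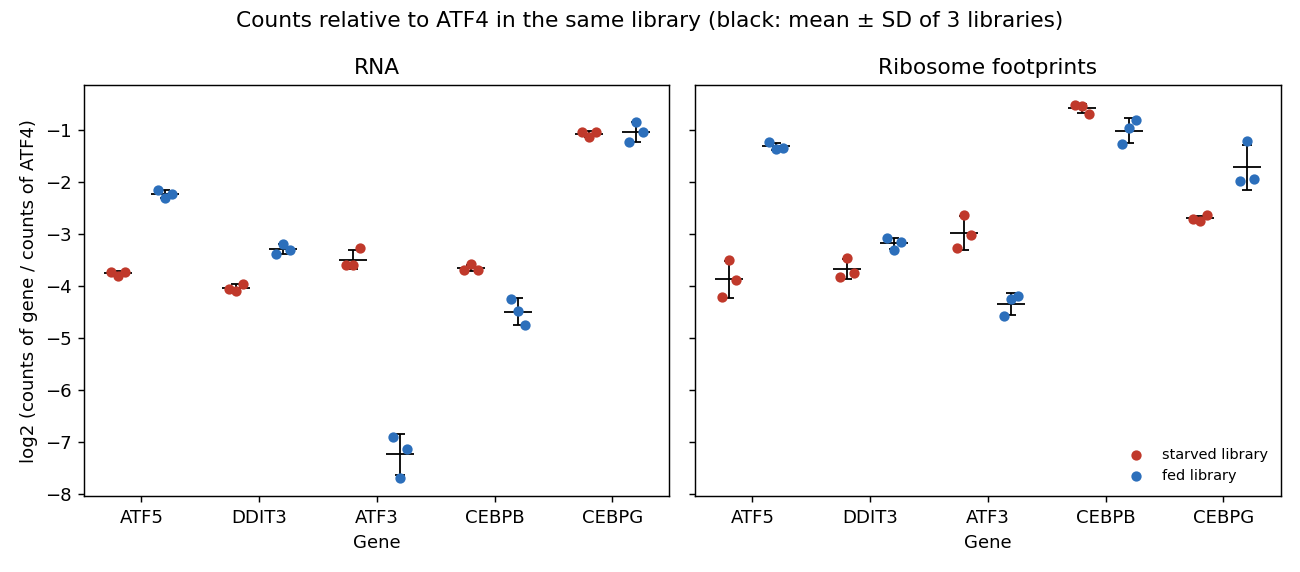
Log2 ratio of each factor's counts to those of ATF4 in the same library, RNA left and footprints right, with 1 point per library and black bars for mean ± SD of 3. CEBPG overlaps between starved and fed in RNA and lies lower in starved footprints, and ATF5 lies lower in starved libraries of both assays.

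The makeup of the 6 rows' footprint counts changed with these ratios. CEBPB took 31.9 ± 1.64% of them in starved and 21.0 ± 2.79% in fed libraries, and ATF5 took 3.30 ± 0.741% in starved and 17.0 ± 1.75% in fed libraries (SD, n = 3). ATF4 took 47.6 ± 1.55% in starved and 42.2 ± 2.05% in fed libraries (SD, n = 3). Shares of counts depend on transcript length and are compared here only for the same gene between conditions.

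Footprint to RNA ratios placed the factors at different points of the transcriptome. CEBPB carried 4.78 footprint CPM per RNA CPM in starved cells and 4.79 in fed cells, the 94.0 and 95.8 percentiles of 11027 transcripts. These ratios use TMM-scaled group means, and on library totals the log2 ratio of CEBPB was 2.20 in starved and 2.13 in fed cells, against 2.26 in both with TMM scaling. CEBPG carried 0.185 in starved and 0.271 in fed cells, percentiles 1.44 and 4.80. ATF4 carried 0.571 in starved and 0.433 in fed cells, percentiles 26.7 and 15.7, and DDIT3 carried 0.729 and 0.464 in starved and fed cells, percentiles 37.2 and 18.0. ATF5 was at percentile 23.8 in starved and 42.5 in fed cells. ATF3 was at percentile 42.4 in starved and 93.0 in fed cells, where its counts were few. These ratios depend on how much of each transcript is coding, which was not tested.

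**Figure D5:**
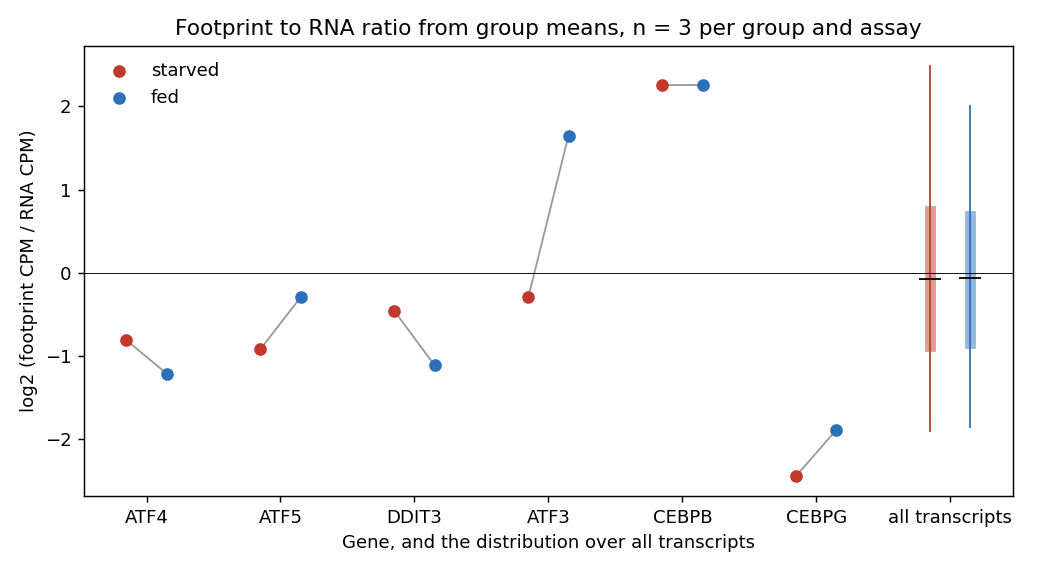
Log2 ratio of footprint to RNA CPM (TMM-scaled group means, n = 3 per group and assay) of each factor in starved and fed cells, beside all 11027 transcripts (thin line 5th to 95th percentile, thick line middle 50%, black tick median). CEBPB stays near 2.26 in both conditions, CEBPG lies lowest, and ATF3 drops to −0.29 in starved cells against 1.65 in fed cells.

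The transcripts most like ATF4 were sought by the root mean square difference of their log2 CPM profile over the 12 libraries, each profile taken relative to the fed mean of its assay. Among 7142 other transcripts averaging 4 or more in log2 CPM in each assay, ENST00000260443 and ENST00000444739 were closest, both at 0.14. ENST00000260443 changed by 1.91 in RNA and 2.06 in footprints on the log2 scale, and ENST00000444739 by 1.83 and 1.98. DDIT3 (0.48), CEBPB (0.48) and CEBPG (0.53) followed with 88, 90 and 112 of these transcripts closer to ATF4. ATF5 (1.49) and ATF3 (1.88) were far off, with 3888 and 6086 closer. This distance depends on the size of a change as well as its direction. ATF3 rose more than ATF4, by 5.54 in RNA and 3.61 in footprints, and the ATF5 estimates were 0.31 and −0.40.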

How the data were processed

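The authors deposited 2 tables of raw, whole-number counts, with Ensembl transcripts as rows. The submitters' processing notes name DESeq2, STAR, cutadapt, UMI-tools and the build GRCh38.p13 without versions. What tool counted, and over which region of a transcript, is not given in the sources used here. Per the labels' protocols, RNA libraries used a TruSeq kit, and footprints were depleted of ribosomal RNA.

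Counts were tested with edgeR 4.0.16 (R 4.3.3; two-sided quasi-likelihood test; TMM factors from transcripts kept by filterByExpr), each assay apart; efficiency was the interaction of assay and treatment over 12 libraries, with transcripts kept in both. Alternatives were DESeq2 1.42.0, DESeq2 size factors, library totals, no filter, a replicate block, loess offsets against abundance (limma 3.58.1), leaving out each library and, added after seeing the data, TMM factors from all rows. The fit with no filter also took its TMM factors from unfiltered rows, so it nearly shares the scaling of that added setting. CPM of single libraries use library totals, and footprint to RNA ratios use TMM scaling. Scripts were tested on simulated data.

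The 6 genes, the lists and the tests were chosen with earlier results of these data known. All 6 are named, plus the 2 transcripts closest to ATF4. None of the 19849 identifiers matched the gene table (0 matched), so lists of other pathway genes and cell markers were not read. RefSeq proteins were not used here.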

Additional observations from a re-analysis of the deposited data

Results flagged for a closer look

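For 4 of the 6 factors the same contrast gave different changes in the 2 assays, by the test of the interaction of assay and treatment (edgeR, Benjamini-Hochberg adjusted, starved over fed, log2). Footprints changed by more than RNA for DDIT3, with a difference of 0.60 (adjusted p = 0.0357, edgeR). They changed by less for ATF3, at −1.82 (adjusted p = 0.00182, edgeR), and for CEBPG, at −0.53 (adjusted p = 0.0419, edgeR). For ATF5 the estimates pointed opposite ways, 0.31 in RNA and −0.40 in footprints, with a difference of −0.63 (adjusted p = 0.0251, edgeR). Of 11027 transcripts tested, 11.1% were called higher and 11.7% lower. Of these 4 calls, ATF3 held under every setting tried and every left-out library, with differences of −2.12 to −1.66 over the left-out libraries. ATF3 had passed the filter on low counts through its starved libraries. The call was lost in 9 of 12 fits that leave out a library for DDIT3, 8 of 12 for CEBPG and 3 of 12 for ATF5, and under at least 1 other setting for each.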

How the results depend on the processing

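RNA was called higher for 6 members and footprints for 5 in every fit that left out a library and under each other setting, except that library totals gave 5 in RNA. Efficiency was the weak point. Members with higher efficiency numbered 1 in the analysis as reported, 2 on library totals, 0 without a filter and 0 with DESeq2. They numbered 0 with TMM factors from all rows, a setting chosen after seeing the data, and 0 to 2 when a library was left out. The number was also 1 with the trend removed, with the replicate block and without starved footprint replicate 2. In those fits ATF4 was called and DDIT3 was not. Members with lower efficiency numbered 3, but 1 on library totals, 2 with the trend removed and 1 to 3 when a library was left out. TMM factors from all rows called 2075 transcripts lower in efficiency, against 1292, and moved the median of all transcripts by −0.14; library totals moved the RNA median by −0.11. The CEBPB efficiency difference was never called. It turned to −0.11 without a filter and to −0.11 with TMM factors from all rows, settings that both take TMM factors from unfiltered rows. It was −0.029 with the trend removed and ran from −0.21 to 0.17 when a library was left out. The cause was not tested.

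Pairing of starved with fed libraries by replicate number was not seen, though 3 libraries per group are too few to decide it. Same-numbered deviations correlated at −0.01, 0.01 and 0.10 in RNA and at −0.21, −0.03 and −0.03 in footprints. For efficiency, the replicate block joined the RNA and footprint libraries of the same condition and number. Same-numbered deviations of these correlated at 0.13, 0.04 and −0.01 in starved and at 0.01, 0.02 and −0.02 in fed libraries. With that block, ATF4 efficiency was 0.40 (edgeR adjusted p = 0.0468) and DDIT3 efficiency 0.61 (edgeR adjusted p = 0.0572). Of the starved libraries, 1 of 3 in RNA and 0 of 3 in footprints lay closest to the fed library of its number. DDIT3 and ATF3 had 79 and 32 fed footprint counts in all, which limits their efficiency estimates.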
